A study of Mus musculus with 15 samples.

Results

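Genes of liver endothelium were followed through the histone marks of whole mouse liver: Pecam1, Cdh5, Tek, Clec4g, Stab2, Lyve1, Tie1, Eng, Emcn and Vwf. They were chosen by name as markers of vessel lining cells, with no threshold on any value, though with earlier results of these data known, and are 10 of the 21887 protein-coding genes examined. Each was read for H3K4me3, for H3K27me3 and for both marks together within 1 kb of its start, in every library.

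The chromatin came from livers of C57Bl/6 mice of 8 to 12 weeks of age, wild type (WT) or Uhrf1hepKO (KO). The KO name gives a deletion of Uhrf1 in hepatocytes, and Uhrf1 encodes a protein needed to copy DNA methylation after replication. The labels give no Cre driver, no sex and no statement that replicates came from separate animals. H3K4me3 was profiled in 2 WT and 2 KO libraries of unstimulated liver, and H3K27me3 in 2 WT libraries and 1 KO library. WT liver during regeneration was profiled for H3K27me3 alone, with 1 library at each of 30, 40 and 96 h, and WT replicate 2 was the 0 h point of that round. How regeneration was started is not given in the sources used here. H3K9me3 had 1 WT and 1 KO library. Endothelial nuclei were not separated from the rest, and the deletion named in the KO mice lies in another cell type. No difference between groups was tested. H3K27me3 and H3K9me3 had 1 KO library each, and the H3K4me3 calls came from 2 libraries against 2, so the counts below describe these libraries.

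Endothelial cells line the blood vessels, and in the liver sinusoids they form a porous sheet that takes up macromolecules from the blood. Trimethylation of histone H3 at lysine 4 (H3K4me3) marks the starts of genes that are active or ready to be transcribed. Trimethylation at lysine 27 (H3K27me3) is laid down by Polycomb repressive complex 2 over silent genes, often those of other cell types. In a tissue of mixed cells, both marks at a start can come from different cells, since each library reads a single mark. In bulk chromatin, fewer endothelial cells and less mark per cell cannot be told apart.

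Starts came from the RefSeq promoter table (GRCm38.p6) for 6 of the 10 genes, namely Tek, Clec4g, Stab2, Tie1, Eng and Emcn. The 4 promoters printed here belong to genes on which the results turn. Tek and Clec4g had an H3K27me3 island in KO but in no baseline WT library, Stab2 had one in 5 of the 6 libraries, and Eng had none. They run from 250 bases before the start to 50 bases from it, 5′ to 3′ on the gene's own strand, with CpG sites in capitals.
Tek (chr4:94739039-94739338, plus strand): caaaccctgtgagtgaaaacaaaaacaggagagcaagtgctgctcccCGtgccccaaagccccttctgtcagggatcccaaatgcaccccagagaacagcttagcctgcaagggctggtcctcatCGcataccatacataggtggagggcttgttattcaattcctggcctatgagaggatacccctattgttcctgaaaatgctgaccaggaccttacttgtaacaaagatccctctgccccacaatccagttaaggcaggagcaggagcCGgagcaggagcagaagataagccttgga
Clec4g (chr8:3720602-3720901, minus strand): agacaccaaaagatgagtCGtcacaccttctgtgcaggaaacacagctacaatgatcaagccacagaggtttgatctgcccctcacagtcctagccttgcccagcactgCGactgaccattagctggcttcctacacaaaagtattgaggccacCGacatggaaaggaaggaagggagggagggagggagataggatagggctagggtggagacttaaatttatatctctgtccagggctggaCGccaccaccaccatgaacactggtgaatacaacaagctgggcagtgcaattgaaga
Stab2 (chr10:87007893-87008192, minus strand): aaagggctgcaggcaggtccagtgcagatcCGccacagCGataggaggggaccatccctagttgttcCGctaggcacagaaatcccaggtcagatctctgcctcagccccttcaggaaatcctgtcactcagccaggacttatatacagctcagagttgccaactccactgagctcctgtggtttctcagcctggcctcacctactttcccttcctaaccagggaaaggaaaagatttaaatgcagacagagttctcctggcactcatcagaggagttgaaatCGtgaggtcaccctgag
Eng (chr2:32646345-32646644, plus strand): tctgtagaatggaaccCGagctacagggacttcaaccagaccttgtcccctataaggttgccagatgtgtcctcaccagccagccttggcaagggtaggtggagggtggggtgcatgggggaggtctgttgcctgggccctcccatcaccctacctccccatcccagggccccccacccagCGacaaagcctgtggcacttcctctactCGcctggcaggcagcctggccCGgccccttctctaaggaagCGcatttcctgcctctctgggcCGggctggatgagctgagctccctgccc

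These promoters hold few CpG sites. Tek had 3, Clec4g 4, Stab2 4, Eng 6, Tie1 7 and Emcn 2 in 300 bases, against a median of 13 over all 21263 promoters of the table. The median of the 6 was 4, the same as that of 25 promoters of hepatocyte marker genes. Promoters with H3K4me3 in all 4 libraries and H3K27me3 in none of the 6 had a median of 21, and 15 promoters of endothelial transcription factors had a median of 11. The letters CAGGAA, a core that ETS factors bind, occurred on either strand in all 6, and in 29.0% of all promoters. The longer form AACAGGAA, which contains those letters, was present in 1, Emcn, against 2.4% of all promoters. AACAAT, a SOX-like core, was present in Tek and Emcn, which is 2 of 6 against 9.05%. AGATAA, which GATA factors bind, was present in Tek alone, against 9.65%. TATAAA was present in Clec4g alone, and there on the strand opposite to the gene, against 12.6% of all promoters with a match on either strand. The GC box GGGCGG, found in 46.2% of all promoters, was in none of the 6. CCGGAA was also in none of them and in 18.7% of all promoters.

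H3K4me3 lay at the start of 9 of the 10 genes in each of the 4 libraries, all but Vwf. Over all protein-coding genes, 63.3% of starts were marked in WT replicate 1, 56.8% in WT replicate 2, 62.4% in KO replicate 1 and 59.5% in KO replicate 2. In all 4 libraries together, the same 9 of 10 members were marked, against 56.1% of all genes. None of the 10 gained H3K4me3 in KO, where 0.11% of all genes did (called in each KO list and absent from each WT list). None lost it either, against 0.0183% of all genes. Vwf alone was unmarked in WT, so no other member could be called gained, and 0 of 10 is near both shares. With an overlap of 200 bp, or with peaks kept to a q of 1e-05, Lyve1 was no longer marked in both KO libraries, which left 8 of 10 there and 9 in WT. For Pecam1, Cdh5 and Lyve1 no listed start was at hand, and the end of the gene with more H3K4me3 was used. Their H3K4me3 call was therefore favoured by the choice of the end, while the other 6 calls were not.

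**Figure D1:**
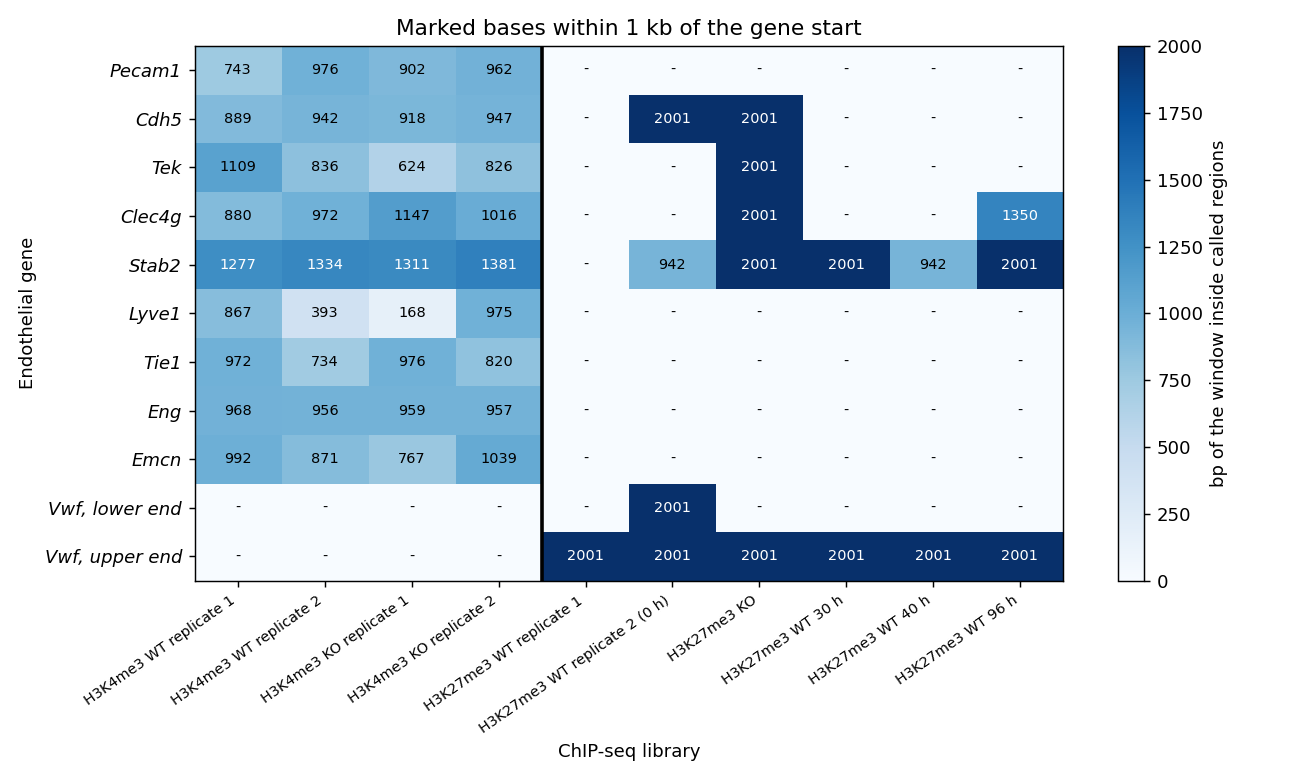
Bases within 1 kb of each gene start (rows, a window of 2001 bp) that lie inside called regions of each library (columns, H3K4me3 left of the line and H3K27me3 right of it), with a dash where there are none; Vwf is shown at both ends. H3K4me3 covered 168 to 1381 bp of the window in the 9 marked genes, while H3K27me3 filled the Tek window in KO alone.

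The H3K4me3 peaks of these genes were low for their libraries. The fold of a peak is the authors' own value over control and was used only within a list. The median fold of the 9 marked members was 7.0 in WT replicate 1, 9.71 in WT replicate 2, 6.58 in KO replicate 1 and 17.41 in KO replicate 2. The median over all marked promoters was 19.54, 46.03, 17.63 and 63.09 in the same libraries, and over hepatocyte marker genes 20.71, 51.5, 19.2 and 60.69. Of the 36 member values, the lowest stood at percentile 1.11 and the highest at percentile 20.7 of the marked promoters of its list. Every marked member thus sat in the lower part of the list in all 4 libraries. The marked stellate and fibroblast markers were lower still, with median folds of 4.38, 7.83, 5.13 and 6.81 in the same order. Marked lymphocyte markers had medians of 7.0, 7.34, 6.97 and 7.43, from 2, 2, 2 and 4 starts. Marked macrophage and myeloid markers had 15.46, 5.76, 12.63 and 6.89, from 3, 7, 2 and 11 starts. The macrophage medians were above those of the members in both replicates 1 and below them in both replicates 2.

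**Figure D2:**
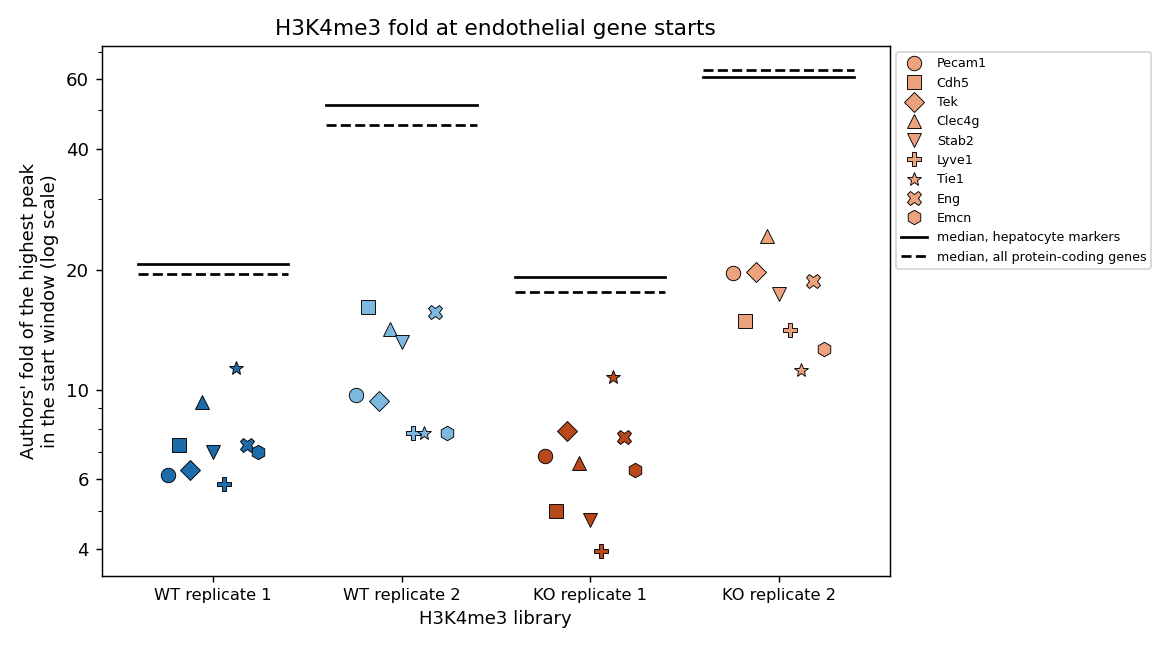
Authors' fold of the highest H3K4me3 peak within 1 kb of the start (log axis) for the 9 marked endothelial genes, 1 symbol each, in the 4 libraries, with lines for the median of hepatocyte marker genes and of all marked protein-coding genes. All symbols lie below both lines, with member medians of 7.0, 9.71, 6.58 and 17.41.

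Among the general vessel genes, Pecam1 encodes CD31, an adhesion protein at contacts between endothelial cells. The gene spans chr11:106654213-106715281, and its peak folds were 6.13 and 9.71 in WT and 6.84 and 19.58 in KO (replicates 1 and 2). Cdh5 encodes VE-cadherin, the main cadherin of endothelial junctions, at chr8:104101613-104144504. Its folds were 7.29 and 16.16 in WT and 5.0 and 14.87 in KO. Emcn encodes endomucin, a surface sialomucin of capillaries and veins, at chr3:137341062-137431069, with folds of 7.0 and 7.83 in WT and 6.31 and 12.69 in KO. In all 3 genes H3K4me3 began within 112 bp of the start and ran into the gene.

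Of the receptors, Tek encodes TIE2, the receptor for angiopoietins, and Tie1 encodes its partner. Tek (chr4:94739086-94874976) had H3K4me3 folds of 6.33 and 9.4 in WT and 7.89 and 19.7 in KO. Its longest peak measured 1.01 and 1.24 kb in WT and 0.453 and 1.8 kb in KO. Tie1 (chr4:118471191-118489849) had folds of 11.38 and 7.83 in WT and 10.79 and 11.24 in KO, and short peaks on both sides of the start, the longest of which was 0.496 to 0.56 kb. Eng encodes endoglin, a co-receptor for BMP9 and related ligands, at chr2:32646595-32682669. Eng carried a broad H3K4me3 domain in every library, of 2.96 and 3.94 kb in WT and 2.51 and 4.27 kb in KO. These lengths stood at percentiles 91.3, 98.5, 87.3 and 98.5 of the marked promoters of their lists. Eng thus joined a long domain to a low fold, which was 7.29, 15.67, 7.63 and 18.77 in the same order.

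Of the sinusoidal scavenger and lectin genes, Stab2 encodes stabilin-2, a receptor that clears hyaluronan, and lies at chr10:86841194-87008038. Its longest H3K4me3 peak was 1.07 and 4.09 kb in WT and 0.859 and 4.49 kb in KO. In both replicates 2 that length stood at percentile 98.8, so a single long peak was called in replicate 2 of each genotype and not in replicate 1. Replicate 1 had more and shorter peaks over the gene. They covered 5.14% of Stab2 in WT (17 peaks) and 3.9% in KO (12 peaks). In replicate 2 the cover was 2.74% in WT and 2.98% in KO, with 4 peaks each. Clec4g encodes LSECtin, a C-type lectin of sinusoidal endothelium, at chr8:3707066-3720695, with peaks of 0.869, 1.79, 1.38 and 1.87 kb. Lyve1 encodes a hyaluronan receptor of sinusoidal and lymphatic endothelium, at chr7:110850607-110862953. Its longest peak was 0.493 and 0.218 kb in WT and 0.168 and 1.89 kb in KO, so that the KO libraries held both its shortest and its longest peak. Vwf encodes von Willebrand factor, a clotting protein of larger vessels, at chr6:125552948-125686679, and had no H3K4me3 peak within 1 kb of either gene end in any library.

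**Figure D3:**
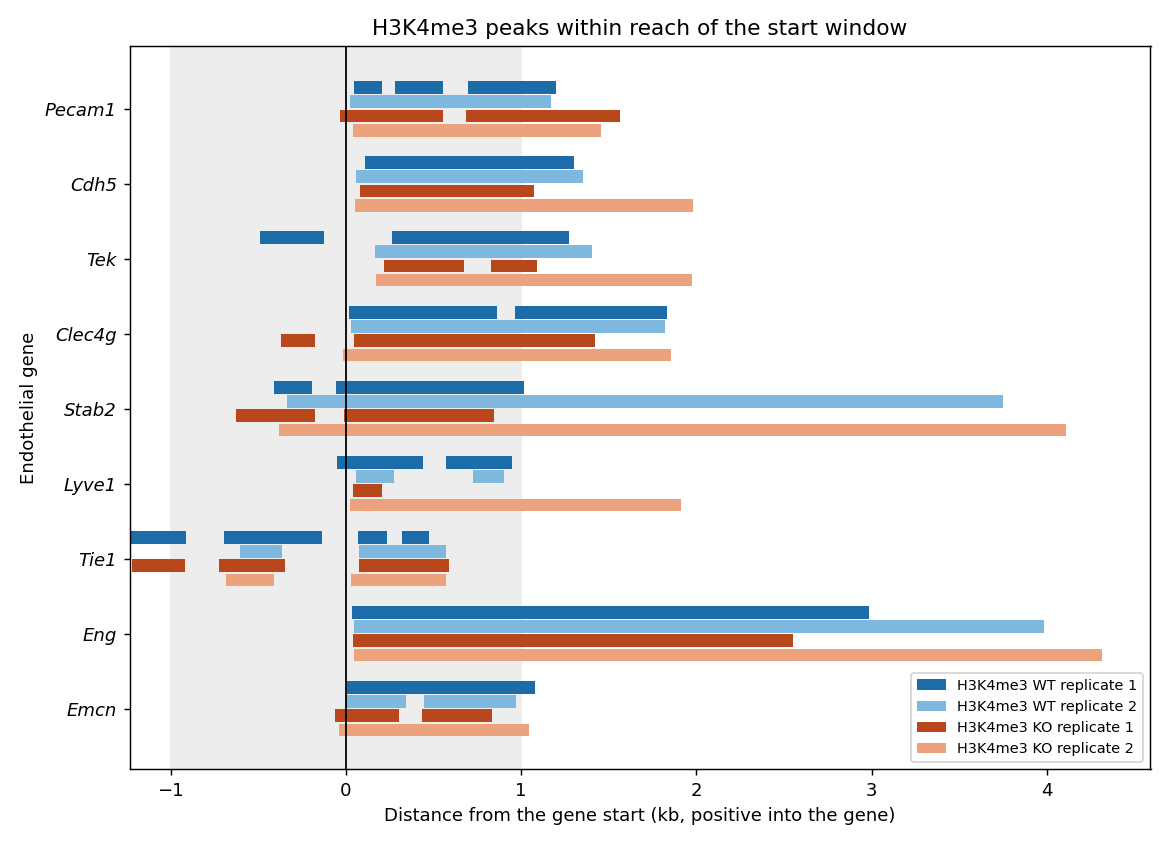
H3K4me3 peaks that touch the window of 1 kb on each side of the start (grey) for the 9 marked endothelial genes, drawn as bars by distance from the start in kb, with positive values inside the gene and 1 colour for each library. Most bars lie on the gene side, and those of Eng in all 4 libraries and of Stab2 in both replicates 2 run beyond 2.5 kb.

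Peak length against genotype went in opposite directions in the 2 replicates. In replicate 1 the longest peak was longer in KO for 2 of the 9 members, Pecam1 and Clec4g, and for 42.7% of all genes marked in both libraries. In replicate 2 it was longer in KO for 9 of 9 and for 82.2% of all genes. The libraries of replicate 2 are labelled as round 2, while replicate 1 carries no round. The 2 libraries of round 2 have an antibody field that reads H3K9me3 and titles that read H3K4me3. They were grouped by title. They marked 19 of 20 housekeeping starts each, as replicate 1 did, and the H3K9me3 libraries marked 0 of 20.

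H3K27me3 lay at more of these starts in KO than in either library of unstimulated WT liver. Among the 10 genes, 1 was marked in WT replicate 1 (Vwf), 3 in WT replicate 2 (Cdh5, Stab2 and Vwf) and 5 in KO (Cdh5, Tek, Clec4g, Stab2 and Vwf). Vwf is counted here by either gene end, since its start is not known from the tables used. Its upper end was marked in each of these libraries and its lower end in WT replicate 2 alone. Over all genes the shares were 21.7%, 26.9% and 22.4%, so the members stood below that share in WT replicate 1, near it in WT replicate 2 and above it in KO. Tek and Clec4g gained H3K27me3, being marked in KO but not in either WT list, which is 2 of 10 against 0.909% of all genes. None of the 10 lost it (marked in both WT lists and unmarked in KO), against 1.32% of all genes. Vwf alone was marked in both WT lists, so no other member could be called lost, and the counts gained and lost are not on equal terms.

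The count of genes marked in KO depended on the WT library it was set against. Set against WT replicate 1, 4 of 10 members were marked in KO alone (Cdh5, Tek, Clec4g and Stab2), where 3.03% of all genes were. In that WT library alone 0 of 10 were marked, against 2.34% of all genes, though it marked only Vwf of the 10. Those 2 libraries gave equal control counts at all 414 islands with the same bounds, so they were called with the same control. Set against WT replicate 2, which was called with another control, 2 of 10 were marked in KO alone (1.88% of all genes) and 0 of 10 in WT alone (6.36%). The 2 WT libraries differed from each other at 2 members, Cdh5 and Stab2, which were marked in replicate 2 and not in replicate 1, and 7.16% of all genes did the same. The reverse held for 0 of 10 and for 1.99% of all genes. Thus the calls at Cdh5 and Stab2 differed within WT, while Tek and Clec4g did not differ in call between the 2 WT libraries. The KO list covered 500 Mb of the genome, and the WT lists 417 and 483 Mb for replicates 1 and 2. ChIP reads in islands numbered 21610372 in KO, and 16383502 and 21738935 in WT replicates 1 and 2. The part of these differences in the calls was not tested.

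An island holds read counts for the ChIP and the control, and its fold is their ratio after scaling by the authors. The intervals here are exact 95% intervals that cover counting error alone. At Tek, the KO island ran from 1.3 kb before the start to 20.7 kb inside the gene (chr4:94738001-94760000), with 743 ChIP reads, 844 control reads and a fold of 1.37 (1.24 to 1.51). A further KO island lay inside the gene, at 86.7 to 113.7 kb from the start, with a fold of 1.29 (1.18 to 1.41). No other library had an island over the Tek start. The nearest island lay 314.3 kb from the window in WT replicate 1, 275.7 kb in WT replicate 2, 282.7 kb at 30 h and 317.3 kb at 40 h. At 96 h WT liver had an island inside the gene only, at 94.7 to 120.7 kb from the start, which overlaps the inner KO island, with a fold of 1.32 (1.22 to 1.43). The Tek folds of 1.29 to 1.37 lay at the low end of the member islands, which ran up to 1.79, and its neighbours Ift74 and Eqtn were unmarked by H3K27me3 in all 6 libraries. When islands were kept only from a fold of 1.5 up, or up to an equal covered length in each library, the Tek start was unmarked in KO, and with islands kept to an FDR of 1e-05 it stayed marked.

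At Clec4g, the KO island spanned the whole gene and beyond it, 37.0 kb in all (chr8:3685001-3722000), with 1390 ChIP reads, 1377 control reads and a fold of 1.57 (1.46 to 1.69). In WT replicate 2 an island with the same lower bound stopped at chr8:3711000, after 28.9% of the gene and 8.3 kb short of the window, with a fold of 1.44 (1.33 to 1.56). In WT replicate 1 no island lay over the gene, and the nearest was 4.3 kb from the window. In each of these islands Clec4g shared the domain with Fcer2a, a neighbour that encodes a low-affinity receptor for IgE. The Fcer2a start was marked in WT replicate 2, in KO and at 96 h, and had no H3K4me3 in any library. The call at Clec4g therefore marks how far an island that was also present in WT replicate 2 reached. With both gene ends counted, Clec4g was marked in WT replicate 2 and no longer gained in KO.

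At Cdh5, the island over the start ran from 16.6 kb before it to 16.4 kb inside in WT replicate 2, with a fold of 1.49 (1.39 to 1.59). In KO it ran from 13.6 kb before to 3.4 kb inside, with a fold of 1.63 (1.46 to 1.82). In both libraries a separate island covered the far end of the gene, so that 54.5% of Cdh5 lay in islands in WT replicate 2 and 58.0% in KO. In WT replicate 1 the gene held no island, and the nearest was 27.6 kb from the window. At Stab2, islands lay mostly upstream of the gene. In WT replicate 2 the island ended 0.1 kb before the start and reached 942 bp of the window, with a fold of 1.68 from 649 ChIP and 864 control reads, and in KO it reached 3.9 kb into the gene, with a fold of 1.58 (1.42 to 1.75). In WT replicate 1 the nearest island was 71.1 kb away.

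**Figure D4:**
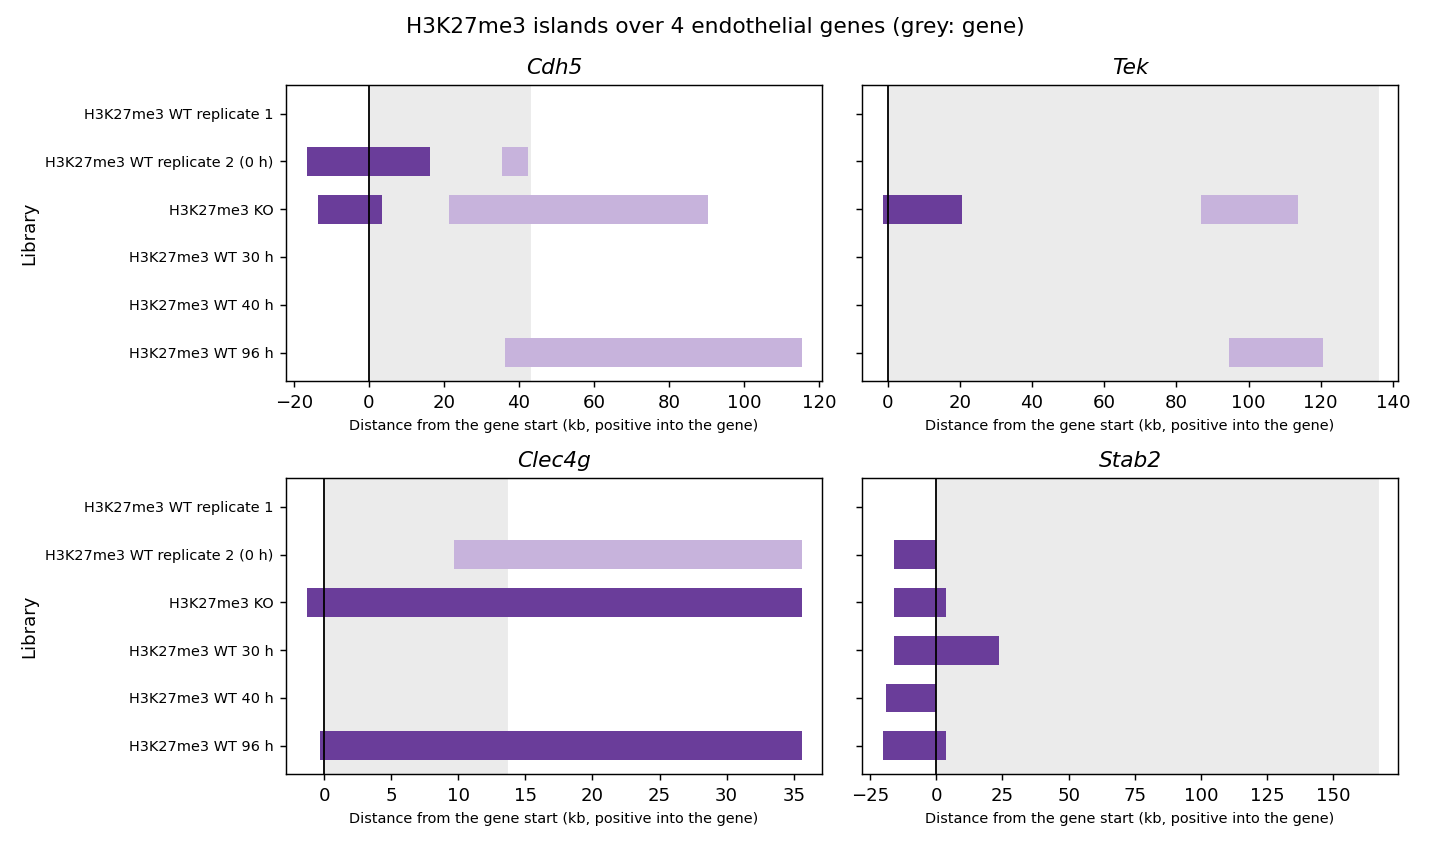
H3K27me3 islands that overlap Cdh5, Tek, Clec4g and Stab2 in the 6 libraries (rows), by distance from the gene start in kb, with the gene in grey. Dark bars reach the window around the start and pale bars do not; WT replicate 1 has no bar in any panel and the Tek start has a dark bar in KO alone.

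The other members had little H3K27me3 over the gene. Lyve1, Tie1 and Eng had no island over any of their length in the 6 libraries. Pecam1 had an island over its far end in WT replicate 2 alone, covering 19.3% of the gene with a fold of 1.78 from 822 ChIP and 1033 control reads. Emcn had one near its far end in KO, covering 17.8% with a fold of 1.43 (1.29 to 1.6), and one at 96 h, covering 13.3% with a fold of 1.6 (1.43 to 1.8). Vwf was the exception, with an island over its upper end in all 6 libraries that extended into Ano2, a chloride channel gene next to it. Its lower end was marked in WT replicate 2 alone. Islands covered 2.75% of Vwf in WT replicate 1, 58.9% in WT replicate 2 and 38.6% in KO. Which of the 2 ends is the start is not given in the tables used here, so the Vwf call counts either end.

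Both marks together were found at 4 of 10 starts in KO (Cdh5, Tek, Clec4g and Stab2), against 6.98% of all genes. They were found at 0 of 10 in WT replicate 1, against 5.84%, and at 2 of 10 in WT replicate 2 (Cdh5 and Stab2), against 7.84%. In KO, 624 to 1381 bp of each of these 4 windows lay inside both an H3K4me3 peak and an H3K27me3 island, over the 2 H3K4me3 libraries. At Tek the shared length was 624 and 826 bp, at Clec4g 1147 and 1016 bp, at Cdh5 918 and 947 bp, and at Stab2 1311 and 1381 bp. At Stab2 in WT replicate 2 only 220 and 275 bp were shared, and at Cdh5 889 and 942 bp. All 4 genes kept their H3K4me3 call in both KO libraries.

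During regeneration the Stab2 start and the upper end of Vwf were marked by H3K27me3 in every library from 0 to 96 h. The lower end of Vwf was marked at 0 h and unmarked at 30, 40 and 96 h, and Vwf is counted here by either end. The members marked numbered 3 of 10 at 0 h, 2 at 30 h, 2 at 40 h and 3 at 96 h, while the share of all genes was 26.9%, 17%, 16.5% and 24.1%. Cdh5 was marked at 0 h and unmarked at 30, 40 and 96 h, which is 1 of 10 against 11.4%, 12.1% and 5.42% of all genes. Clec4g was unmarked at 0, 30 and 40 h and marked at 96 h, which is 1 of 10 against 2.65%. No member was newly marked at 30 h (1.54% of all genes) or at 40 h (1.7%). The libraries at 30, 40 and 96 h shared a control by their equal control counts, and the 0 h library had another, so the change from 0 h and the change of control cannot be told apart. Covered length was 483 Mb at 0 h and 417, 378 and 459 Mb at 30, 40 and 96 h. ChIP reads in islands numbered 21738935 at 0 h and 15168562, 12764569 and 21374188 at 30, 40 and 96 h. The scale of ChIP to the shared control was 0.3692, 0.3416 and 0.4383 at 30, 40 and 96 h. The part of read depth in these calls was not tested.

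The extent of the called islands also differed between these libraries in the same genes. The Clec4g island at 96 h covered the whole gene, reached 1350 bp of the window and had a fold of 1.45 (1.35 to 1.55), and it shared its lower bound with the KO island. At 30 and 40 h the nearest island was 51.7 and 50.7 kb from the Clec4g window. The Stab2 island was longest at 30 h, at 40.0 kb, when it reached 23.9 kb into the gene and covered 14.4% of it with a fold of 1.49 (1.39 to 1.6). At 40 h it again stopped 0.1 kb before the start, and at 96 h it reached 3.9 kb inside, as in KO. Cdh5 had no island at 30 or 40 h, and at 96 h an island covered 15.2% of it from the far end. Vwf was covered over 32.7%, 51.4% and 19.9% of its length at 30, 40 and 96 h. With H3K4me3 of unstimulated WT liver set beside these libraries, both marks were found at 1 member at 30 h (3.45% of all genes), 1 at 40 h (3.37%) and 2 at 96 h (6.84%).

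H3K9me3, a mark of constitutive heterochromatin, touched none of the 10 starts in either genotype, where 1.89% of all genes were marked in WT and 1.91% in KO, so that 0 of 10 is near the share of all genes. Broad peaks lay inside Tek over 4.24% (WT) and 3.27% (KO) of its length, inside Stab2 over 1.14% and 1.36%, and inside Pecam1 over 0% and 0.729%. The other 7 genes held none.

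Of the 10 genes, 5 shared one pattern of calls, with H3K4me3 in all 4 libraries and H3K27me3 in none of the 6, namely Pecam1, Lyve1, Tie1, Eng and Emcn. That pattern was held by 10251 protein-coding genes, or 46.8%. H3K27me3 was absent from all 6 lists at 67.9% of all genes, and present in all 6 at 10.3%. It was present in all 6 at Vwf (1 of 10), through its upper end, which is not known to be its start. The 5 other patterns were rarer. Those of Cdh5 (22 genes), Tek (26), Clec4g (16) and Stab2 (8) were each held by few genes, and Ptprb, which encodes the phosphatase VE-PTP, had the pattern of Cdh5. A pattern needs the same call in all 10 libraries, so these small numbers alone do not show that the genes are unusual. The pattern of Vwf by either end, H3K27me3 throughout with no H3K4me3, was held by 1305 genes, among them Sele, Jag2 and Lmo2.

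The 82 other genes of the endothelial lists were marked by H3K27me3 at 39, 46 and 41 starts in WT replicate 1, WT replicate 2 and KO. Those shares were 47.6%, 56.1% and 50%, beside 10%, 30% and 50% of the members, so the lists had the same share in KO. Of the 82, 74, 70, 73 and 73 had H3K4me3 in the 4 libraries. None of the 82 gained H3K27me3 in KO, against 0.909% of all genes. Flt1, which encodes a VEGF receptor, was the only one marked in both WT libraries and not in KO, with folds of 1.76 and 2.2 in WT. That is 1.22% of the 82, against 1.32% of all genes, so both counts are near the shares of all genes. Both marks in every baseline library were found at 28 of the 82, of which 10 belong to the list of endothelial transcription factors. Over all genes, both marks were found at 5.84% in WT replicate 1, 7.84% in WT replicate 2 and 6.98% in KO, each taken singly. Their H3K27me3 folds in KO ran from 1.5 to 2.53 with a median of 1.9, and 25 of the 28 exceeded 1.63, the highest fold over a start that also carried H3K4me3 among the 10 members. The highest were at Klf4 (2.53), Sox18 (2.47) and Gata4 (2.4), all of which encode transcription factors, and at Plvap (2.36), which encodes the diaphragm protein of fenestrae. Of these 28 starts, 12 were marked at 30 h, 10 at 40 h and 28 at 96 h. They were picked as marked at 0 h, so their number could only stay or fall. Over all genes, 5886 starts were marked at 0 h. Of those, 2503 were unmarked at 30 h, 2646 at 40 h and 1187 at 96 h. Those starts were picked by the 0 h library alone, and the 28 by every baseline library. Of the 16 sinusoidal scavenger and angiocrine genes, which include Clec4g, Stab2 and Lyve1, 16 had H3K4me3 in each of the 4 libraries.

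Markers of the other liver cells gave different shares. Hepatocyte markers carried H3K4me3 at 28 or 29 of 29 starts and H3K27me3 at 0 of 29 in all 6 libraries. Stellate and fibroblast markers carried H3K4me3 at 10 to 13 of 16 starts and H3K27me3 at 7 to 12. Lymphocyte markers carried H3K4me3 at 2 to 4 of 20 starts and H3K27me3 at 6 to 13. Macrophage and myeloid markers carried H3K4me3 at 2 to 11 of 16 starts and H3K27me3 at 8 to 11, and bile duct markers at 7 to 9 and 3 to 9 of 15. The gain in KO was also seen at 2 stellate genes (Col3a1 and Dcn) and 2 lymphocyte genes (Ptprc and Gzma), and at 0 of 16 macrophage, 0 of 15 bile duct and 0 of 29 hepatocyte markers. Whether the mixture of cells differed between the livers was not tested.

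**Figure D5:**
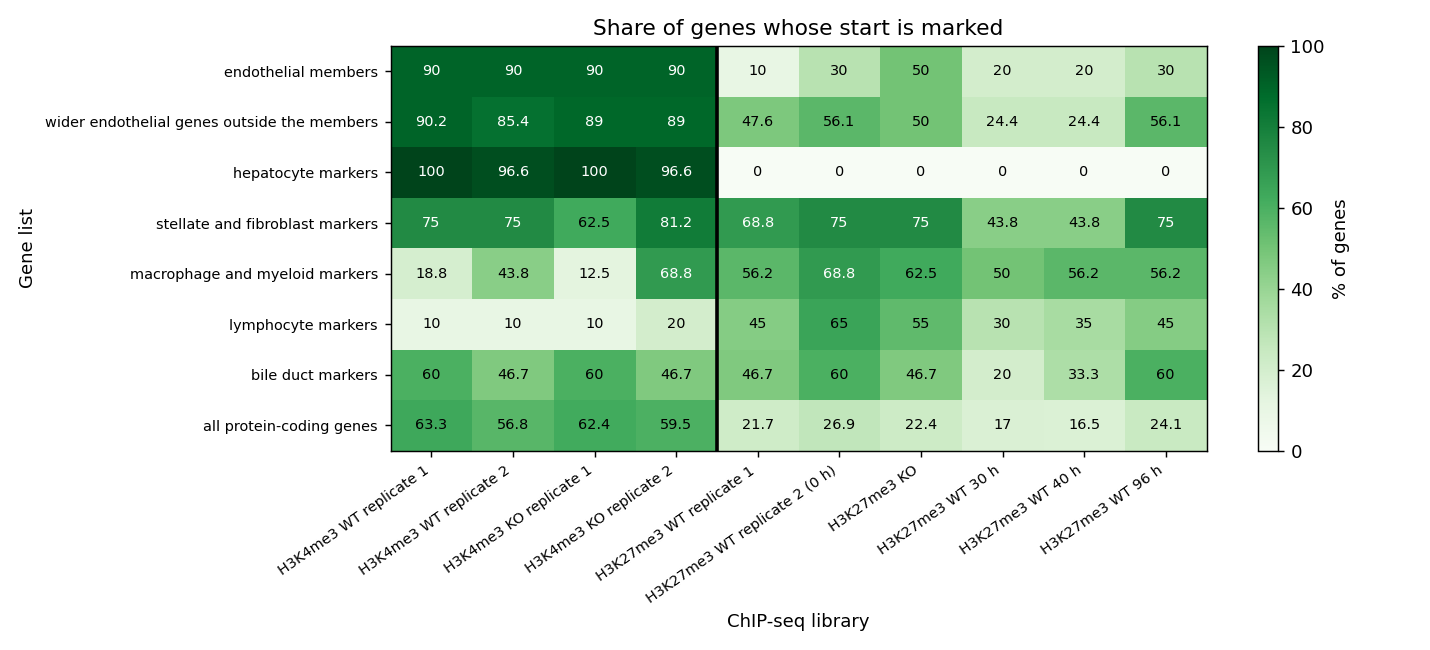
Percentage of genes in each list (rows) with a marked start in each library (columns, H3K4me3 left of the line and H3K27me3 right of it); the printed numbers are the percentages. The 10 endothelial genes stand at 90.0% in each H3K4me3 library and at 10% to 50% in the H3K27me3 libraries, where the hepatocyte row is at 0%.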

How the data were processed

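The samples were 12 ChIP libraries and 3 inputs of mouse liver, grouped by title. The authors deposited MACS2 peak lists for H3K4me3 and H3K9me3, with a score, a fold and −log10 p and q values per peak, and SICER island lists for H3K27me3, with ChIP and control read counts, a fold ratio and FDR q-values per island. BWA, Trimmomatic, Picard and the build mm10 (GRCm38.p4) are named by the submitters' processing notes, per the labels. Regions were called per library, and which input served each list is not given in the sources used here. The island file names give windows of 1000 bp and gaps of 4000 bp.

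Islands up to an FDR of 0.01 and all H3K4me3 peaks were used. A gene was marked if a region overlapped the window of 1 kb on each side of its start by 1 bp or more. Starts came from RefSeq (GRCm38.p6) for 17492 genes, from the gene end with more H3K4me3 for 2815 and from both ends for 1580. Absence from a list is not absence of signal. No p-value was computed from the lists, and no difference between groups was tested. The number of reads in islands ran from 12764569 to 21738935 per H3K27me3 library; depth behind H3K4me3 peaks is unknown from the lists. All 10 members were named in every library, and other genes by gain or loss in KO, by both marks ranked by fold, by equal calls in 10 libraries, or as neighbours within 50 kb. Calls were tested on simulated regions. Members and lists were chosen with earlier results of these data known. Calls and intervals were made with pandas 2.3.3 and scipy 1.17.1 in Python 3.11.15.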

Additional observations from a re-analysis of the deposited data

How the results depend on the processing

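The counts of members were recomputed under 17 alternatives, namely other windows, starts, overlaps, thresholds and sets of libraries, and 153 of 167 values stayed within 1.5 times the reported count. That tally compares counts alone, so an equal count made up of other genes passes. It also includes counts of 0 that stayed 0. The count of 9 with H3K4me3 in both KO libraries was 8, without Lyve1, with an overlap of 200 bp and with peaks kept to a q of 1e-05. The 9 in both WT libraries, the 0 for H3K4me3 gained or lost and the 0 for H3K27me3 lost in KO were the same under every alternative that touched them. Under the main setting, Vwf alone could be called for H3K4me3 gained or for H3K27me3 lost, so these counts of 0 had little room to change.

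The gain of 2 members in KO became 1 (Clec4g) with islands of equal covered length and 4 with replicate 1 of both genotypes. Leaving out each WT library of H3K27me3 in turn gave 2 to 4. With islands kept from a fold of 1.5 up it was again 2, but Clec4g and Cdh5, and with both gene ends again 2, but Tek and Emcn. Tek thus left the gained genes under both choices of islands by fold and stayed with islands kept to an FDR of 1e-05, and Clec4g left with both gene ends.

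With both gene ends, members marked at 0 h were 5, those with both marks in WT replicate 2 were 4, those lost by 30 h and by 40 h were 3 each, and those gained at 96 h were 0. With islands kept from a fold of 1.5 up, members marked were 0 at 30 h, 1 at 40 h and 0 at 96 h. Those with both marks in WT replicate 2 were then 1, and those gained at 96 h were 0. The members lost by 30 h were then 2, Vwf and Stab2, in place of Cdh5. The members lost by 40 h were again 1, but Vwf in place of Cdh5.

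No paired test was run, since no difference between groups was tested. Within replicate 1 and within replicate 2 of H3K4me3, 0 members were gained and 0 lost in KO. Single libraries limit every H3K27me3 comparison with KO or with time.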
